A study of Mus musculus with 9 samples.

Results

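The NF-κB subunits and their feedback regulators were followed here as 9 genes, Nfkb1, Nfkb2, Rel, Rela, Relb, Nfkbia, Tnfaip3, Traf1 and Birc3, taken by symbol from the 45808 genes of the count table. All 9 were in the table, and 8 of them passed the filter on low counts, together with 7858 genes in all that were tested. Relb did not pass, and its counts are given in full.

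RNA was sequenced from ICOS+ CD4 T cells, the activated helper and regulatory T cells that carry the costimulatory receptor ICOS, sorted by flow cytometry from MC38 tumours in C57BL/6J mice on day 12 after the tumour cells were injected. The MC38 line was derived from a colon adenocarcinoma of C57BL/6 mice. There were 3 mice treated with anti-CTLA-4, an antibody against an inhibitory receptor that competes with CD28, 3 treated with anti-PD-1, an antibody against an inhibitory receptor of activated T cells, and 3 mice labelled Control. Each library came from 1 mouse and, because the yield was low, was made with a single-cell amplification kit. All 3 groups share the strain, the tumour line, the ICOS gate and the day. The sources used here do not give the agent that Control mice received, the antibody clones and doses, the ages or the number of cells sorted.

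NF-κB is a family of dimeric transcription factors. Rel (c-Rel), Rela (p65) and Relb carry the part that activates transcription, while Nfkb1 and Nfkb2 encode the precursors p105 and p100, which are cut to the DNA-binding partners p50 and p52. In resting cells the dimers are held in the cytoplasm by IκB proteins. Signals from the T cell receptor, CD28 and receptors of the TNF family activate the IKK kinase complex, which marks IκB for destruction and frees the dimers. NF-κB then switches on its own inhibitors, among them Nfkbia (IκBα), which retrieves the dimers from the nucleus, and Tnfaip3 (A20), a ubiquitin-editing enzyme that shuts off signalling upstream of IKK. Traf1 and Birc3 (cIAP2) are induced adaptors of TNF family receptors. In T cells c-Rel is known for its part in proliferation, Il2 transcription and the development and upkeep of regulatory T cells.

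The members lie on 8 chromosomes of GRCm38 in the GENCODE M21 annotation. Nfkb1 (ENSMUSG00000028163) is at chr3:135584655-135691547 on the minus strand, Nfkb2 (ENSMUSG00000025225) at chr19:46304320-46312385 on the plus strand and Rel (ENSMUSG00000020275) at chr11:23736847-23770970 on the minus strand. Rela (ENSMUSG00000024927) is at chr19:5637483-5648130 on the plus strand and Relb (ENSMUSG00000002983) at chr7:19606217-19629438 on the minus strand. Nfkbia (ENSMUSG00000021025) is at chr12:55489410-55492647, Tnfaip3 (ENSMUSG00000019850) at chr10:19000910-19015657, Traf1 (ENSMUSG00000026875) at chr2:34941750-34961772 and Birc3 (ENSMUSG00000032000) at chr9:7848699-7873186, all on the minus strand. Counts are per whole gene, so introns, exons and isoforms are not separated. Nfkb1 overlaps Gm43430, a gene model on its own strand that was not used here. Nfkb2 overlaps Psd and a long noncoding RNA on the opposite strand, and since the table is labelled first-strand but no source used here states how strand was counted, reads of Nfkb2 and Psd may not be told apart. Psd had 0, 349 and 0 counts in anti-CTLA-4 mice, 0, 1 and 2 in anti-PD-1 mice and 2795, 0 and 2 in Control mice.

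Several of these genes are textbook NF-κB targets themselves, so the κB consensus was searched in their promoters. The sequences are RefSeq windows on GRCm38.p6 that run from 250 bases before to 50 bases after each annotated start, and 7 of the 9 members have at least 1. Nfkb2 has 3 windows and Tnfaip3 has 2, for separate annotated starts, and a gene counts as holding the motif if any of its windows does. The motif is 10 letters long and reads, on either strand, 3 Gs, a purine, 2 letters of any kind, a pair of pyrimidines and a pair of Cs. It occurred in the windows of 4 of these 7 members, Nfkb2, Rel, Nfkbia and Tnfaip3, and in none of the windows of Rela, Traf1 and Birc3. Among all promoter windows of this length 8.46% held it, and among tested genes with a window 12.8% did. A match describes the letters only and is not evidence of binding. The 24 bases around one match of each of these 4 genes are shown 5′ to 3′ on the gene's own strand, with the match in capitals.
Nfkbia: ctggcttGGAAATTCCCcgcgcct
Tnfaip3: ttccatcGGAAATCCCCctgttgg
Rel: aagcagcGGGAAATCCCcccccct
Nfkb2: tcgtcacGGGAATTCCCcccctcg

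The Nfkbia match lies at chr12:55492660-55492683 and begins 29 bases before the start. Those of Tnfaip3 lie at chr10:19015406-19015429, with the match beginning 12 bases before the start. Those of Rel lie at chr11:23771045-23771068, with the match 92 bases before it, and those of Nfkb2 at chr19:46304691-46304714, with the match 39 bases before it. In Rel and Nfkb2 a further match overlaps the one shown, shifted by 1 base. Tnfaip3 has another within chr10:19015519-19015542, tcacgcgGGGACACCCCggggcgg, and Nfkb2 another within chr19:46304719-46304742, gccgaaaGGGGCTTTCCcggctgg. The other windows of Nfkb2 hold further matches, around chr19:46305452-46305475 and around chr19:46305698-46305721, the place where these windows overlap each other, and the other window of Tnfaip3 holds none. For context, the 250 bases before the Nfkbia start (chr12:55492648-55492897, minus strand) are given in full, again with the match in capitals.
Nfkbia promoter: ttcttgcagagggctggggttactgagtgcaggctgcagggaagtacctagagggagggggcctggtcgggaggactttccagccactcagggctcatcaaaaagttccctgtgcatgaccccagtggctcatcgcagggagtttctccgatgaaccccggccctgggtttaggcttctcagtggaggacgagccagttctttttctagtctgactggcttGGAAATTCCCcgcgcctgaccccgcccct

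Gene counts summed to 25530333 to 41508589 per library, so that 3 counts, the limit taken for a gene at 0, equal 0.0723 to 0.118 CPM, the unit of counts scaled to 1e+06 gene counts of the library. Reads carry no molecular identifiers, so this limit covers counting error only. Anti-CTLA-4 replicate 2 and anti-PD-1 replicate 2 held the fewest genes, 2662 and 4209 with at least 5 CPM, where the other 7 libraries held 5124 to 6309. Anti-CTLA-4 replicate 2 also went against its label in part: Cd3d, Cd3g and Trac were at 696, 649 and 632 CPM, but Cd3e was at 0.59, Cd5 at 0.73 and Cd4 at 24.5 CPM, where Cd4 was at 309 to 808 CPM in the other 8 libraries. Icos, the gene of the sorting gate, was at 507 CPM in it and at 1706 to 2876 CPM elsewhere. The summed level of 18 macrophage and monocyte markers was 414 to 7639 CPM in anti-CTLA-4 mice, 271 to 779 CPM in anti-PD-1 mice and 342 to 868 CPM in Control mice, with Cd163 and Aif1 at 0 in all 9. The 7639 CPM is that of anti-CTLA-4 replicate 2, which was also highest in the sum of 8 fibroblast markers, at 2404 CPM against at most 430 CPM elsewhere (430 CPM in Control replicate 2). The sum of 7 neutrophil markers was 267 CPM in it, against at most 102 CPM elsewhere. All of that 267 CPM was Mmp9, and S100a8, S100a9, Csf3r, Ly6g, Retnlg and Cxcr2 were at 0 in this library. Sums of dendritic cell, B cell, NK cell and epithelial markers were at most 249.8, 63.8, 84.4 and 57.7 CPM in any library, and of the CD8 markers Cd8a was at 0 in all 9 while Cd8b1 was at 125 CPM in anti-PD-1 replicate 3 and at most 0.12 CPM elsewhere. Several changes in anti-CTLA-4 are also given without anti-CTLA-4 replicate 2.

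No tested member was called as changed between any pair of groups by edgeR's quasi-likelihood test, with p-values adjusted by Benjamini-Hochberg over all tested genes. The intervals were wide, so changes are not shown to be absent. In anti-CTLA-4 over Control, 0 of 8 tested members were called, against 0.369% of all tested genes. In anti-PD-1 over Control, 0 of 8 were called, against 0.0764%, and in anti-CTLA-4 over anti-PD-1, 0 of 8, against 0.827%. At an unadjusted p under 0.05 the number of members was also 0 in each of the 3 comparisons, against 11.3%, 6.01% and 14.1% of all tested genes in the same order. DESeq2 gave no adjusted p for Rel and Tnfaip3. Of the 7 members that had one it called 1, Relb, in each comparison with Control and 0 between the antibodies, against 12.8% of genes in anti-CTLA-4 over Control, 12.0% in anti-PD-1 over Control and 15.2% between the antibodies. In the levels themselves, Tnfaip3 and Rel were abundant in every library, and each anti-PD-1 library lay below each Control library in Nfkbia, a difference that the test did not call. In bulk RNA such as this, fewer cells that express a gene and less RNA per cell cannot be told apart.

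**Figure D1:**
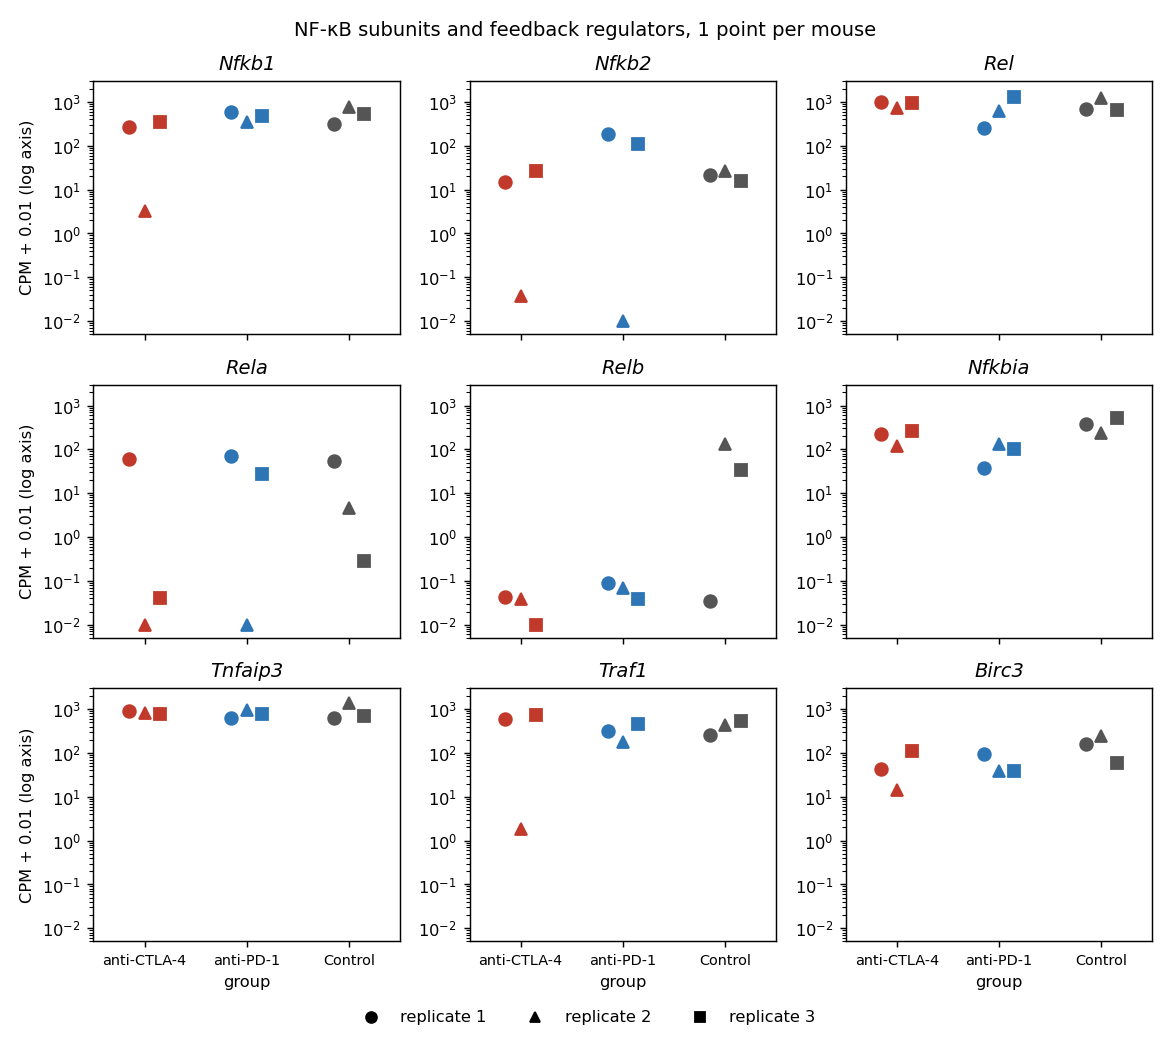
CPM of each of the 9 genes in each mouse, on a log axis after adding 0.01 so that values of 0 can be drawn, with red for anti-CTLA-4, blue for anti-PD-1 and grey for Control, and 1 symbol shape per replicate number. Rel and Tnfaip3 stay at or above 247.9 CPM in all 9 libraries, Relb is above 1 CPM in 2 Control libraries only, and Nfkbia is at 36.9 to 136 CPM in anti-PD-1 and at 234 to 522 CPM in Control.

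Among the subunits with an activation domain, Rel was the one read at high level in every library. Rel had 976, 711 and 962 CPM in anti-CTLA-4 mice, 247.9, 611 and 1308 CPM in anti-PD-1 mice and 708, 1224 and 667 CPM in Control mice. The lowest and the highest of the 9 values were both in anti-PD-1, and all groups overlapped. Rel averaged 883 ± 149 CPM in anti-CTLA-4, 722 ± 539 CPM in anti-PD-1 and 866 ± 310 CPM in Control (SD, n = 3 each). Its fitted log2 fold change, which unlike CPM also uses TMM factors for differences in library composition, was 0.74 in anti-CTLA-4 over Control (SE 0.74; edgeR adjusted p = 0.922) and -0.04 in anti-PD-1 over Control (SE 0.74; edgeR adjusted p = 0.9998). The 95% interval reached 2.20 in anti-CTLA-4 over Control and ran between -1.49 and 1.41 in anti-PD-1 over Control, so changes of that size are not shown to be absent. Without anti-CTLA-4 replicate 2, whose TMM factor of 0.403 raises its scaled level of Rel to 1766 CPM, the anti-CTLA-4 change was 0.35. It differed with the scale, at 3.06 with RLE factors (edgeR adjusted p = 0.449), 2.87 with DESeq2 and 0.028 with library totals alone.

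Rela, the subunit that pairs with p50 in the classical dimer, was read in some libraries of each group and nearly lacking in others. It had 59.3, 0 and 0.031 CPM in anti-CTLA-4 mice, 71.3, 0 and 27.1 CPM in anti-PD-1 mice and 54.1, 4.60 and 0.28 CPM in Control mice. Every group therefore held both a library above 50 CPM and one under 1 CPM, and no group stood apart. Relb, the subunit of the noncanonical pathway, was at 1, 1 and 0 counts in anti-CTLA-4 mice, 2, 2 and 1 counts in anti-PD-1 mice and 1, 4177 and 1221 counts in Control mice. Control replicates 2 and 3 thus held it at 134 and 34.1 CPM, while Control replicate 1, at 0.024 CPM, lay among the treated libraries, so the groups overlapped. DESeq2, which entered all genes, gave Relb an adjusted p of 0.00313 in anti-CTLA-4 over Control and 0.00143 in anti-PD-1 over Control, whereas edgeR without the filter gave adjusted p-values of 0.369 and 0.425. No fold change is given for Relb because both treated groups are at or under the limit of 3 counts.

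The precursor genes differed from each other in level and in spread. Nfkb1 had 268.5, 3.23 and 344 CPM in anti-CTLA-4 mice, 587, 341 and 474 CPM in anti-PD-1 mice and 310.4, 762 and 532 CPM in Control mice. The one low value is that of anti-CTLA-4 replicate 2. Nfkb1 averaged 205 ± 179 CPM in anti-CTLA-4, 467 ± 123 CPM in anti-PD-1 and 535 ± 226 CPM in Control (SD, n = 3 each), and the fitted log2 change was -1.19 in anti-CTLA-4 over Control (SE 1.12; edgeR adjusted p = 0.885) and 0.02 in anti-PD-1 over Control (SE 1.11; edgeR adjusted p = 0.9998). Without anti-CTLA-4 replicate 2 the change over Control was -0.61 and the anti-CTLA-4 mean 306.5 CPM. Nfkb2, whose p100 product both restrains RelB and yields p52, had 14.6, 0.028 and 26.5 CPM in anti-CTLA-4 mice, 181, 0 and 111 CPM in anti-PD-1 mice and 21.3, 27.1 and 15.8 CPM in Control mice. Its highest values were those of anti-PD-1 replicates 1 and 3, but anti-PD-1 replicate 2 was at 0, and the log2 change of 2.26 in anti-PD-1 over Control had an SE of 2.97 (edgeR adjusted p = 0.9998).

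Nfkbia, the inhibitor that newly made NF-κB activity induces to end its own response, was the member whose groups were best separated. It had 221, 118 and 264 CPM in anti-CTLA-4 mice, 36.9, 136 and 103 CPM in anti-PD-1 mice and 387.5, 234 and 522 CPM in Control mice. Each anti-PD-1 library lay below each Control library, whereas anti-CTLA-4 overlapped both. The means were 201 ± 75.1 CPM in anti-CTLA-4, 91.9 ± 50.4 CPM in anti-PD-1 and 381 ± 144 CPM in Control (SD, n = 3 each), so that the anti-PD-1 mean was 0.241 times the Control mean. The fitted log2 change of anti-PD-1 over Control was -1.73 (SE 1.43; 95% interval -4.54 to 1.08; edgeR adjusted p = 0.9998). Over 17 alternative fits it ranged between -2.39 and -1.35, always with the same sign, and the lowest adjusted p was 0.582. These fits reuse the same libraries, which do not overlap in Nfkbia between anti-PD-1 and Control, so the kept sign is not separate support. Birc3 also kept its sign in all 17 for this comparison.

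Of the 9 members, 1 was lower without overlap in anti-PD-1 against Control, and 0 were higher. Among all tested genes 7.33% were lower in this way and 3.45% higher, so 1 gene of 9 is near the background. With CPM scaled by TMM factors Nfkbia was at 31.8, 163 and 87.7 in anti-PD-1 and at 328, 186 and 424 in Control, still without overlap, as were 6.52% of tested genes in that direction. In anti-CTLA-4 against Control, 0 members were higher and 0 lower without overlap, against 1.57% and 10.4% of tested genes. Leaving out anti-CTLA-4 replicate 2, Traf1 was higher than Control without overlap and the other 8 members were not separated, against 8.03% of tested genes higher and 13.9% lower. Between the antibodies, 0 members were separated in CPM, against 2.81% of tested genes higher and 6.95% lower in anti-CTLA-4. With TMM factors Nfkbia was higher in anti-CTLA-4, at 196, 293 and 249.3, against 31.8, 163 and 87.7 in anti-PD-1, and Nfkb1 was lower in anti-CTLA-4, at 238.5, 8.03 and 325, against 506, 409 and 403 in anti-PD-1. The shares of tested genes separated on that scale were 3.67% higher and 6.32% lower. The log2 change of Nfkbia in anti-CTLA-4 over anti-PD-1 was 1.39 (SE 1.42; edgeR adjusted p = 0.840), 3.22 with RLE factors (edgeR adjusted p = 0.394) and 3.04 with DESeq2 (adjusted p = 0.147). In anti-CTLA-4 over Control it was -0.35 (SE 1.39; edgeR adjusted p = 1), and its sign turned with RLE factors, to 1.73.

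**Figure D2:**
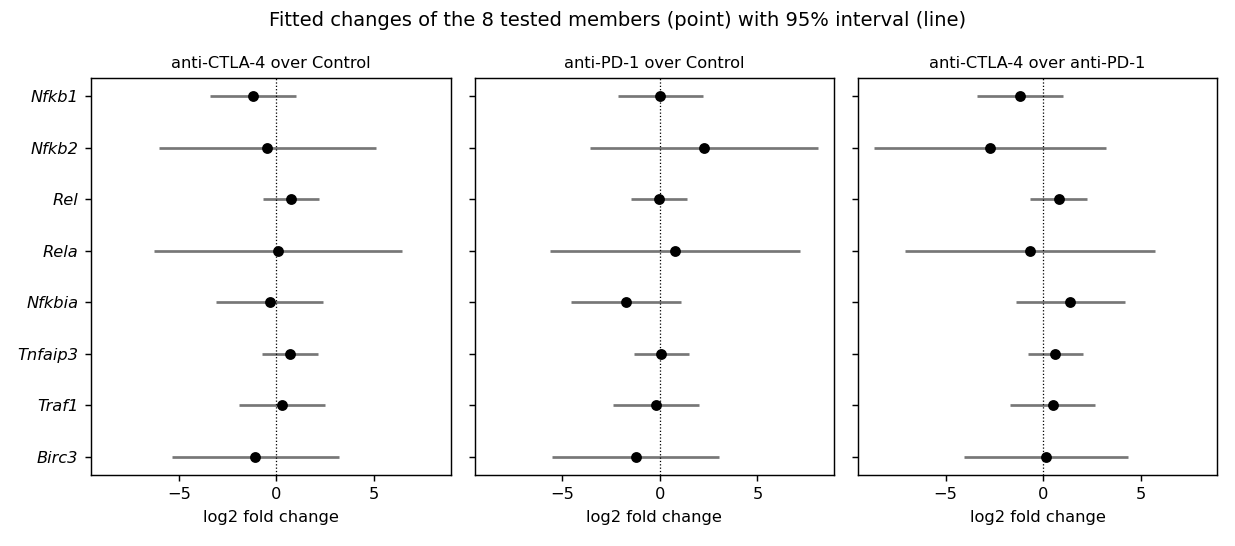
Fitted log2 fold changes of the 8 tested members in the 3 comparisons, with points for the estimates and lines for the 95% intervals. All intervals include 0, and the line for Nfkbia in anti-PD-1 over Control runs between -4.54 and 1.08.

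Tnfaip3, which encodes A20, had the most even CPM of the tested members. It had 916, 815 and 781 CPM in anti-CTLA-4 mice, 621, 942 and 762 CPM in anti-PD-1 mice and 615, 1385 and 696 CPM in Control mice. The values overlapped throughout, and the highest was that of Control replicate 2. Its coefficient of variation over the 9 libraries was 28.1%, and that of Rel 39.9%, against a median of 126% over the tested genes. Among the 234 tested genes that averaged at least 500 CPM, 78.2% varied more than Tnfaip3 and 49.1% more than Rel. With CPM scaled by TMM factors this order did not hold: the coefficients were 53.5% for Tnfaip3, 50.5% for Rel and 48.8% for Nfkb1. Both were also the highest members of anti-CTLA-4 replicate 2, with 815 CPM for Tnfaip3 and 711 CPM for Rel, where Nfkb1, Nfkb2, Rela and Traf1 were at 3.23, 0.028, 0 and 1.83 CPM. A20 and c-Rel transcripts are also made by macrophages and other leukocytes, and the part of the macrophage and monocyte markers of this library in those levels was not tested. The log2 change of Tnfaip3 was 0.71 in anti-CTLA-4 over Control (SE 0.73; edgeR adjusted p = 0.937). It was 3.17 with RLE factors (edgeR adjusted p = 0.435), 2.97 with DESeq2, -0.10 with library totals alone and 0.10 once anti-CTLA-4 replicate 2 was left out. For anti-PD-1 over Control the change was 0.08 (SE 0.72; edgeR adjusted p = 0.9998).

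The adaptor genes showed wider spread. Traf1, which binds TRAF2 and cIAP proteins at TNF family receptors, had 602.5, 1.83 and 734 CPM in anti-CTLA-4 mice, 311, 182 and 469 CPM in anti-PD-1 mice and 251, 444.5 and 541 CPM in Control mice. Anti-CTLA-4 replicates 1 and 3 were thus the highest of the 9 libraries and replicate 2 the lowest. Without replicate 2 the anti-CTLA-4 mean was 668 CPM, against 412 ± 148 CPM in Control (SD, n = 3), and the log2 change was 0.88 (edgeR adjusted p = 0.657). With it the change was 0.29 (SE 1.12; edgeR adjusted p = 1). Birc3, a ubiquitin ligase that acts on RIP kinases and on the kinase NIK, had 42.8, 14.4 and 112 CPM in anti-CTLA-4 mice, 94.6, 38.6 and 39.7 CPM in anti-PD-1 mice and 159, 246 and 60.2 CPM in Control mice. Both antibody groups averaged lower, at 56.3 ± 50.1 CPM in anti-CTLA-4 and 57.7 ± 32.0 CPM in anti-PD-1, than the 155 ± 92.9 CPM in Control (SD, n = 3 each), but both overlapped it. The log2 changes were -1.08 in anti-CTLA-4 over Control (SE 2.17; edgeR adjusted p = 1) and -1.23 in anti-PD-1 over Control (SE 2.18; edgeR adjusted p = 0.9998). These comparisons share the Control libraries, so their like signs are not separate observations.

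Levels were compared between genes after division by exon length, taken as the union over annotated transcripts. Which transcripts were expressed was not measured, so the order of genes rests on this divisor. It is 12.06 kb for Nfkb1 and 1.61 kb for Nfkbia. In CPM per kb of exon, anti-CTLA-4 had Nfkbia, Rel and Tnfaip3 at the top, with 125 ± 46.6, 118 ± 19.97 and 116 ± 9.76 (SD, n = 3), 3 levels that differ by less than their spread. In anti-PD-1 the same genes led in another order, with Tnfaip3 at 107 ± 22.3, Rel at 96.7 ± 72.2 and Nfkbia at 57.1 ± 31.3. Rel overlapped both of the others there, while the highest Nfkbia library, at 84.3, lay just below the lowest Tnfaip3 library, at 85.9. In Control, Nfkbia came first at 237 ± 89.4, then Tnfaip3 at 124 ± 58.6 and Rel at 116 ± 41.5, and the libraries of all 3 genes overlapped. Traf1 and Nfkb1 followed in each group, at 50.6 ± 44.3 and 17.0 ± 14.9 in anti-CTLA-4, 36.4 ± 16.3 and 38.8 ± 10.2 in anti-PD-1 and 46.7 ± 16.7 and 44.3 ± 18.7 in Control, and did not differ from each other beyond their spread. Birc3, Nfkb2, Rela and Relb were the lowest, with group means between 0.0052 for Relb in anti-CTLA-4 and 30.9 for Birc3 in Control. Within each group the neighbours in this lower part of the order overlapped. In all 3 groups the mean of each subunit gene other than Rel was below those of Nfkbia and Tnfaip3. In anti-PD-1, however, the Nfkbia libraries, at 22.9 to 84.3, overlapped those of Nfkb1, Nfkb2 and Rela, which reached 48.7, 39.5 and 23.2.

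**Figure D3:**
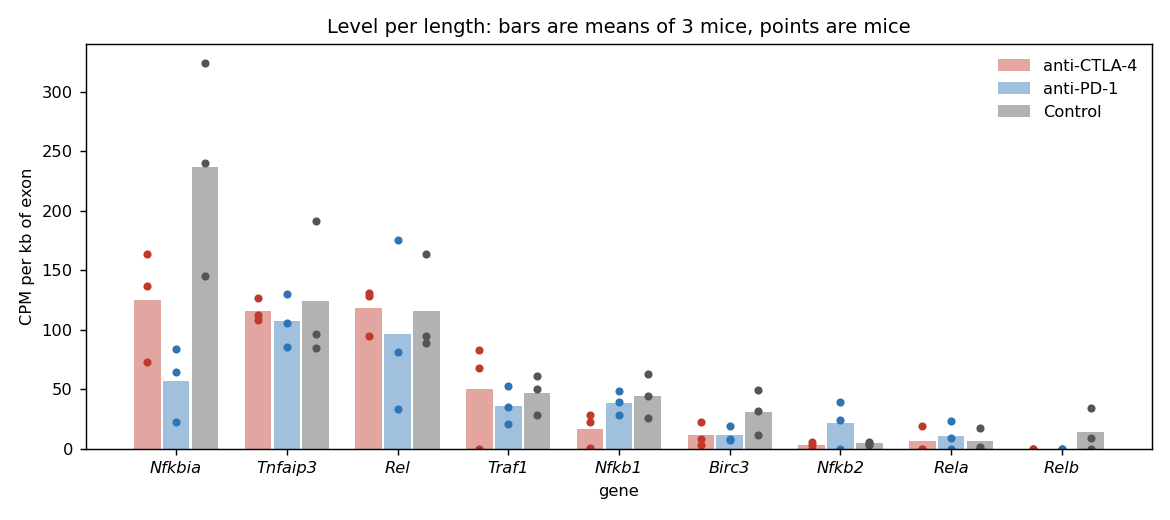
Level of each gene per kb of exon, with bars for the means of 3 mice and points for the mice, in anti-CTLA-4 (red), anti-PD-1 (blue) and Control (grey). Nfkbia, Tnfaip3 and Rel have the highest means in each group, and the Nfkbia points of anti-PD-1, at 22.9 to 84.3 CPM per kb, lie below those of Control, at 145.5 to 324 CPM per kb.

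Over the 8 tested members as a set, the log2 changes were centred near those of all genes. The median was -0.13 in anti-CTLA-4 over Control, with 4 of 8 positive, against 0.0077 over all tested genes. In anti-PD-1 over Control it was -0.01 with 4 of 8 positive, against 0.07, and in anti-CTLA-4 over anti-PD-1 it was 0.31 with 5 of 8 positive, against -0.05. The members differed in how closely they followed a shared profile. Traf1, Birc3, Nfkb1 and Nfkb2 correlated with the mean standardised profile of the members at r = 0.69, 0.65, 0.61 and 0.59 over the 9 libraries, while Rela was at 0.41, Nfkbia at 0.16, Rel at 0.02 and Tnfaip3 at -0.40, values that describe these 9 libraries and include each gene in the mean. The genes outside the set most like that mean, of 3346 with at least 50 CPM on average, were Zc3h12d, Eif3f, Zfp281, Ppp1r3fos and Foxk2, with r between 0.87 and 0.88. Each of these 5 was under 0.3 CPM in anti-CTLA-4 replicate 2, which the likeness therefore shares with the low members of that library.

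The wider pathway was read from 6 lists with 75 genes, of which 65 were tested. No gene of these lists was called in any of the 3 comparisons, and at an unadjusted p under 0.05 there were 4 in anti-CTLA-4 over Control, 2 in anti-PD-1 over Control and 8 in anti-CTLA-4 over anti-PD-1, beside the 11.3%, 6.01% and 14.1% of all tested genes. In anti-PD-1 against Control, 8 of 65, or 12.3%, were lower without overlap and 0 higher, beside the 7.33% and 3.45% of all tested genes. In anti-CTLA-4 against Control, 7 of 65, or 10.8%, were lower and 0 higher, beside the 10.4% and 1.57% of all genes. In anti-CTLA-4 against anti-PD-1, 4 of 65, or 6.15%, were higher and as many lower, beside 2.81% and 6.95%. The median log2 change of the 65 genes was -0.05 in anti-CTLA-4 over Control with 30 positive, 0.08 in anti-PD-1 over Control with 34 positive and -0.04 in anti-CTLA-4 over anti-PD-1 with 30 positive, against 0.0077, 0.07 and -0.05 over all tested genes. The genes named here are from the 4 with the highest mean in each list, since none was called.

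Among 12 receptors that activate NF-κB, 9 were tested and 0 called in either direction in each comparison. Cd28, the costimulatory receptor for B7 ligands, led with 3461, 564 and 2043 CPM in anti-CTLA-4 mice, 3410.0, 3843 and 3262 CPM in anti-PD-1 mice and 3539, 3032 and 2476 CPM in Control mice. It was at its lowest in anti-CTLA-4 replicate 2 and otherwise overlapped between groups. Tnfrsf9 (4-1BB), a costimulatory TNF receptor, had 245, 0.53 and 419 CPM in anti-CTLA-4, 552, 297 and 845 CPM in anti-PD-1 and 440.4, 907 and 791 CPM in Control. In CPM all anti-CTLA-4 libraries thus lay below all Control libraries (log2 change -1.50, SE 1.02; edgeR adjusted p = 0.617; -0.90 without replicate 2 of anti-CTLA-4). With CPM scaled by TMM factors, the Tnfrsf9 levels of anti-CTLA-4 and Control overlapped. Tnfrsf4 (OX40) averaged 462 ± 339.8 CPM in anti-CTLA-4, 534 ± 86.4 CPM in anti-PD-1 and 569 ± 322 CPM in Control (SD, n = 3 each). Tnfrsf1b (TNF receptor 2) was at 156 to 450 CPM in anti-CTLA-4, 173 to 458 CPM in anti-PD-1 and 228 to 646 CPM in Control, and both genes overlapped between all groups.

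Of 12 genes on the route between the antigen receptor and IKK, 11 were tested and 0 called in either direction. Tab2, an adaptor of the kinase TAK1, averaged 645 ± 85.9 CPM in anti-CTLA-4, 705 ± 261 CPM in anti-PD-1 and 646 ± 158 CPM in Control (SD, n = 3 each). Malt1, a protease and scaffold of antigen receptor signalling, was at 0.22 CPM in anti-CTLA-4 replicate 2 and at 38.4 to 358 CPM in the other 8 libraries. Rbck1 (HOIL-1), a subunit of the linear ubiquitin ligase, had 34.8, 0.17 and 0.12 CPM in anti-CTLA-4, 164, 0.27 and 84.8 CPM in anti-PD-1 and 129, 171 and 259 CPM in Control. Its anti-CTLA-4 libraries were thus all below those of Control (log2 change -3.86, SE 2.44; edgeR adjusted p = 0.544; -3.29 without replicate 2 of anti-CTLA-4).

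In the list of the IKK complex and the noncanonical kinases, 10 of 11 genes were tested and 0 called in either direction. Ikbkb, the main kinase of the classical route, ranged from 172 to 538 CPM in anti-CTLA-4, 82.1 to 832 CPM in anti-PD-1 and 305 to 654 CPM in Control. Chuk, which encodes the IKKα kinase, had 77.5, 726 and 51.5 CPM in anti-CTLA-4, 48.2, 0.030 and 60.2 CPM in anti-PD-1 and 1.11, 57.0 and 0.11 CPM in Control. Its value in anti-CTLA-4 replicate 2 was the highest, and its log2 change of 5.37 in anti-CTLA-4 over Control (SE 1.65; edgeR adjusted p = 0.145) was not called. Without that library the change was 1.92 (SE 3.24; edgeR adjusted p = 1). Map3k8, the kinase that p105 holds inactive, had 16.1, 0.056 and 155 CPM in anti-CTLA-4, 24.9, 0.12 and 0.12 CPM in anti-PD-1 and 65.4, 157 and 109 CPM in Control, which left every anti-PD-1 library below every Control library (log2 change -3.63, SE 2.86; edgeR adjusted p = 0.9998).

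Of the 6 other IκB family genes 4 were tested, with 0 called in either direction. Nfkbiz, which encodes the nuclear IκBζ and is itself a target of NF-κB, shared the arrangement of Nfkbia in anti-PD-1 against Control. It had 277, 954 and 205 CPM in anti-CTLA-4 mice, 181, 128 and 148 CPM in anti-PD-1 mice and 322, 493 and 324 CPM in Control mice, so the anti-PD-1 libraries were the lowest of all 9. The log2 change was -1.09 in anti-PD-1 over Control (SE 0.98; edgeR adjusted p = 0.9998) and 2.69 in anti-CTLA-4 over anti-PD-1 (SE 1.03; edgeR adjusted p = 0.304). The 954 CPM is that of anti-CTLA-4 replicate 2, the library with the 7639 CPM of macrophage and monocyte markers, and the part of those markers in it was not tested. Without that library the change over anti-PD-1 was 0.63 (SE 0.85; edgeR adjusted p = 0.915). Nfkbid and Bcl3, the other nuclear IκB proteins, and Nfkbie, a cytoplasmic one, overlapped between all groups.

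Among 14 other negative regulators 13 were tested and 0 called in either direction. Tax1bp1, an adaptor of A20, was at 109 to 440 CPM in anti-CTLA-4, 113 to 361 CPM in anti-PD-1 and 132 to 341 CPM in Control. Cyld, a deubiquitinase that opposes IKK activation, had 102, 0.25 and 104 CPM in anti-CTLA-4, 403, 142 and 202 CPM in anti-PD-1 and 110.3, 232 and 386 CPM in Control. In CPM all anti-CTLA-4 libraries lay below all libraries of the other groups, with 104 and 110.3 CPM as the nearest values (log2 change over Control -1.64, SE 1.65; edgeR adjusted p = 0.924; -1.06 without replicate 2 of anti-CTLA-4). With CPM scaled by TMM factors, the Cyld levels of anti-CTLA-4 and Control overlapped. N4bp1 and Tnip1, which restrain the same signalling, overlapped between groups, and both were under 1 CPM in anti-CTLA-4 replicate 2.

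The 20 target genes outside the members, of which 18 were tested, also had 0 called in either direction, and Ier3 was at 0 in all 9 libraries. Il2ra (CD25), the highest, had 5793, 2179 and 4853 CPM in anti-CTLA-4, 6727, 5288 and 6490.0 CPM in anti-PD-1 and 5987, 8761 and 9748 CPM in Control. In CPM every anti-CTLA-4 library was thus below every Control library (log2 change -0.40, SE 0.34; edgeR adjusted p = 0.808). With CPM scaled by TMM factors, the Il2ra levels of anti-CTLA-4 and Control overlapped. Cd44, an adhesion receptor of activated T cells, had 620.1, 281.2 and 559 CPM in anti-CTLA-4, 251, 166 and 280.9 CPM in anti-PD-1 and 361.5, 441 and 462 CPM in Control. The anti-PD-1 libraries were below both other groups, in anti-CTLA-4 by the narrow margin between 280.9 and 281.2 CPM, and the log2 change over Control was -0.66 (SE 1.07; edgeR adjusted p = 0.9998). Ccnd2 (cyclin D2) and Cflar (an inhibitor of caspase-8) overlapped between all groups. Beside these results in anti-PD-1, the summed level of 8 T cell markers was 8979 to 9319 CPM in anti-PD-1 and 7172 to 7846 CPM in Control, and the part of this difference in them was not tested. Most of that sum was Cd28 and Icos. Only Cd3g and Cd4 were higher without overlap in anti-PD-1, as were 3.45% of all tested genes, and the other markers overlapped.

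**Figure D4:**
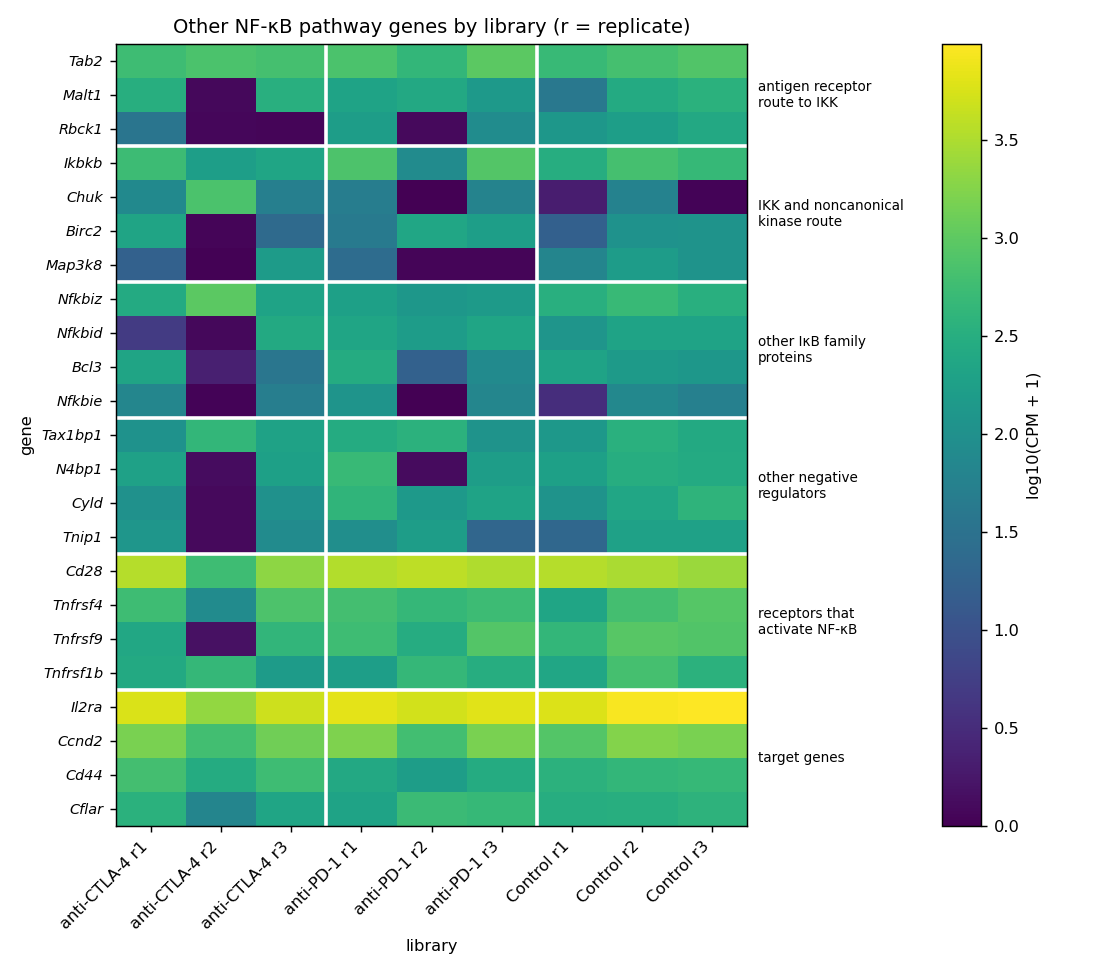
Level of the named genes of the 6 pathway lists in each library, coloured by log10 of CPM + 1, with the 3 anti-CTLA-4 libraries at the left, then anti-PD-1 and Control. The dark column is anti-CTLA-4 replicate 2, where Malt1, Cyld and Tnfrsf9 are under 1 CPM while Nfkbiz and Chuk are at their highest, 954 and 726 CPM.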

How the data were processed

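The authors deposited raw counts per gene symbol for the 9 libraries, with no normalization. Per the submitters' processing notes, TopHat2, HTSeq and DESeq2 were used with the build GRCm38. The sources used here give no versions, annotation or counting settings, though the table is labelled first-strand. Genes took 32.9% to 40.7% of a library's counts, and the 5 HTSeq summary entries, which name no gene, entered neither library sizes nor tests.

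The members are the symbols listed at the opening. The members and the pathway lists were chosen with earlier results of these data known. All members are named, and of each other list every gene called in any comparison or, with none called, the 4 with the highest mean CPM, of which 1 is not reported here. Genes named beyond these were chosen after their values were seen. The 5 most alike genes were ranked by Pearson correlation of log2 CPM (TMM, prior count 2) with the members' mean standardised profile, without predicted genes, clones, pseudogenes and receptor segments.

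Counts were fitted over all 9 libraries with edgeR 4.0.16 in R 4.3.3 (filterByExpr with a minimum count of 10, TMM factors, robust quasi-likelihood F test), with group as the only term and Benjamini-Hochberg adjustment over 7858 genes at 0.05. The common biological coefficient of variation was 1.84, so single changes have wide intervals, taken as 1.96 SE on either side. Groups were said not to overlap when every library of one lay above every library of the other in CPM. Alternatives were other scaling factors, filters and sets of libraries, a replicate block and DESeq2 1.42.0. The overlap and the coefficient of variation with TMM factors, and the overlap and the pathway genes without anti-CTLA-4 replicate 2, were added after seeing the data. Libraries came from separate mice, and no pair of replicates was close enough in counts to be repeats of one library. Exon lengths are unions over GENCODE M21 transcripts, and promoter sequences are from RefSeq.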

Additional observations from a re-analysis of the deposited data

How the results depend on the processing

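No member was called in any of the edgeR alternatives, and DESeq2 called 1 member, Relb, in each comparison with Control. The number of genes called over the whole table depended on the processing, and the cause was not tested. In anti-CTLA-4 over Control 29 genes were called, all higher. The count became 0 with RLE factors (1118 genes at an unadjusted p under 0.05) and 0 with library totals only (697), 64 with no filter, 17 with at least 5 CPM in 3 libraries, 1 with the 2 groups alone, 1 without both libraries of fewest genes and 800 with DESeq2 (207 higher, 593 lower). In anti-PD-1 over Control 6 genes were called, and in the same order of alternatives 0 (511 unadjusted), 0 (414), 2, 3, 0 (269 unadjusted), 2 and 750 (215 higher, 535 lower). In anti-CTLA-4 over anti-PD-1 65 genes were called, and in that order 0 (1261 unadjusted), 6, 98, 38, 31, 16 and 952 (401 higher, 551 lower). Leaving out 1 library at a time gave 0 (without anti-CTLA-4 replicate 2) to 79 (without anti-CTLA-4 replicate 1), 0 to 5, and 6 (without anti-CTLA-4 replicate 2) to 145 (without anti-CTLA-4 replicate 1).

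The replicate numbers gave no sign of pairing the mice: deviations of same-numbered libraries correlated at -0.0345 to 0.0182. With libraries this variable, such values cannot exclude a pairing. With the replicate number as a block, 10, 1 and 12 genes were called in these comparisons, and the sign turned for Rela (-3.93) and Traf1 (-0.20) in anti-CTLA-4 over Control and for Nfkb1 (-0.054) and Nfkb2 (-1.12) in anti-PD-1 over Control.

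RLE factors moved the median log2 change of all genes by 0.555 in anti-CTLA-4 over Control, 0.191 in anti-PD-1 over Control and 0.497 between the antibodies, and library totals by -0.346, -0.194 and -0.165. Signs turned as follows, none of them with a call. In anti-CTLA-4 over Control, Nfkbia was at 1.73 with RLE factors and 1.55 with DESeq2, Birc3 at 0.33 and 0.19 with the same, Tnfaip3 at -0.10 with library totals and Nfkb2 at 0.14 without both libraries of fewest genes. In anti-PD-1 over Control, Rel was at 0.13 with RLE factors and 0.13 with DESeq2, Nfkb1 at -0.19 with library totals, -0.023 with no filter and -0.010 with the stricter filter, and Tnfaip3 at -0.21 with library totals and -0.32 without both libraries. In anti-CTLA-4 over anti-PD-1, Birc3 was at -0.034 with library totals. Leaving out 1 library at a time, the changes that turned ranged in anti-CTLA-4 over Control between -1.44 and 0.14 for Nfkb2, -9.74 and 3.17 for Rela, and -0.33 and 0.88 for Traf1. In anti-PD-1 over Control they ranged between -0.26 and 0.30 for Nfkb1, -0.59 and 0.37 for Rel, -0.56 and 3.84 for Rela, -0.28 and 0.47 for Tnfaip3, and -0.49 and 0.047 for Traf1. In anti-CTLA-4 over anti-PD-1 they ranged between -10.47 and 0.62 for Rela, -0.13 and 1.08 for Traf1, and -0.62 and 0.56 for Birc3. The changes of Nfkbia and Birc3 in anti-PD-1 over Control kept their sign in all 17 alternatives. So did those of Nfkb1 and Rel in anti-CTLA-4 over Control. Between the antibodies, Nfkb1, Nfkb2, Rel, Nfkbia and Tnfaip3 kept theirs. None of these changes was called in any alternative.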

Other observations

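Tnf, the cytokine gene at the head of the TNF receptor route and itself a target of NF-κB, was at 43.3, 0.028 and 10.8 CPM in anti-CTLA-4 mice, 0.039, 0.091 and 0.35 CPM in anti-PD-1 mice and 31.1, 107 and 58.7 CPM in Control mice. It was named after its values were seen. Every anti-PD-1 library lay below every Control library, but edgeR's quasi-likelihood test did not call it (adjusted p = 0.839). Cd69, an early activation marker, had 534, 458 and 165 CPM in anti-CTLA-4, 140, 62.8 and 126 CPM in anti-PD-1 and 184, 561 and 270.4 CPM in Control. Its anti-PD-1 libraries were the lowest of all 9 (edgeR adjusted p = 0.9998 over Control). Cd69 too was named after its values were seen. Of the 18 tested target genes outside the members, 8 had a positive log2 change in anti-PD-1 over Control. Tnf and Cd69 are among the 8 of 65 pathway genes, or 12.3%, lower without overlap in anti-PD-1 than in Control. The share of all tested genes lower in this way was 7.33%.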
